A study of Mus musculus with 16 samples.

Results

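A set of 9 genes of the B cell receptor and the B cell surface was followed through mouse lungs that had received crystalline silica or saline: Cd79a, Cd79b, Ms4a1, Bank1, H2-Ob, Fcer2a, Cd72, Blk and Btla. They were taken by gene symbol from the array's annotation and are 9 of 19938 genes with a probe set of their own. The choice was made with earlier results of these data known. Shares over all genes set beside their counts are therefore descriptions and not independent support. Each of the 9 is read by 1 probe set, and all 9 passed a filter on dim genes, which asks that the highest group mean exceed 7.32, the 25th percentile of gene means.

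Total lung RNA was measured on 16 Affymetrix whole-transcript arrays, and every value below is a log2 expression level or a difference of such levels, so that 1 unit is a doubling. All mice were on the C57BL/6 background, 10 to 12 weeks of age, and were instilled through the trachea with either crystalline silica dust (CS) or buffered saline (PBS). At day 2 the genotypes were BLT1+/+ and BLT1-/-. At day 60 they were BLT1+/+KRasLA1 and BLT1-/-KRasLA1. Each genotype holds 3 CS lungs, called biological replicates in the labels, and 1 PBS array of RNA pooled from 3 mice. BLT1 is the high-affinity receptor for leukotriene B4, a lipid that draws neutrophils. KRasLA1 is a latent tumor allele that is switched on by chance recombination in single cells of many tissues, so it is not limited to the lung. Every day 60 lung, the PBS pools included, carries KRasLA1 and no day 2 lung does, so time after instillation and the tumor allele cannot be told apart. The labels number the lungs but not the animals, so every p-value reflects variation among the given samples alone, and some of that variation may be technical.

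The B cell receptor is a membrane-bound antibody that signals through a paired chain, CD79A with CD79B. When antigen gathers receptors, kinases of the SRC family, among them BLK, phosphorylate the tails of both chains, and the adaptor BANK1 ties those kinases to calcium release. CD20 (Ms4a1) and CD23 (Fcer2a), the low-affinity receptor for IgE, are surface proteins that mark mature B cells. CD72 and BTLA are receptors that dampen the signal, and H2-Ob encodes a chain of H2-O, which restrains the loading of peptides onto MHC class II in B cells. In the mouse lung, B cells are found in the circulation held by the lung's vessels and, after lasting inflammation, in lymphoid aggregates beside airways and vessels. In bulk RNA, fewer cells of a type and less RNA per cell cannot be told apart.

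Because these genes moved together, the 250 bases before their start sites were searched on both strands for 3 motifs of factors known from B cells: the octamer ATGCAAAT (reverse ATTTGCAT), the palindromic EBF1 motif and the PU.1 motif GAGGAAGT (reverse ACTTCCTC). RefSeq promoter sequences of GRCm38.p6 were matched for 6 of the 9 genes. Cd79b, Ms4a1 and Blk were not matched. The promoters of 3 genes are shown in the direction of transcription, with motif matches in capitals: that of the receptor chain Cd79a (chr7:24897247-24897496, plus strand), and those of the inhibitory receptors Cd72 (chr4:43454627-43454876, minus strand) and Btla (chr16:45224087-45224336, plus strand), the only 2 of the 6 with a match.
Cd79a: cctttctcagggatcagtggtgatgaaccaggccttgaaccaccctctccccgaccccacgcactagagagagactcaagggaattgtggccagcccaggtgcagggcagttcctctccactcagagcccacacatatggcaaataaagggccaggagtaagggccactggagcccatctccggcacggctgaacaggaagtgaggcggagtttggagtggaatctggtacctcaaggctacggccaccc
Cd72: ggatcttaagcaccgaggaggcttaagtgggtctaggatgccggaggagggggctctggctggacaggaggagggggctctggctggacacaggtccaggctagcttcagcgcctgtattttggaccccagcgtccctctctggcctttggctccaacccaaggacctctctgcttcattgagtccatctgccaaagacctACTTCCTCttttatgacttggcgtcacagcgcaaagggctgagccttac
Btla: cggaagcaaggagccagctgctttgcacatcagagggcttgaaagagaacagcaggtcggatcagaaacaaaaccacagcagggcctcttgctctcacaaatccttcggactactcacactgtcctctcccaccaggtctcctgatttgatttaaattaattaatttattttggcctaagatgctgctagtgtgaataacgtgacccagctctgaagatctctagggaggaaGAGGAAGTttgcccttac
The match ACTTCCTC in Cd72 begins 49 bases before the start and GAGGAAGT in Btla 18 bases before it. The 6 genes have 8 promoter entries, 3 of them for Fcer2a. Of all 17492 genes with promoters of the same length, 2.57% held the PU.1 letters in at least 1 entry. The exact octamer and EBF1 letters were in 0 of the 6 matched genes, against 1.8% and 0.972% of all genes. A site that differs from these letters was not counted, so a binding site may still be present. No match overlapped another, and a match is a description of these letters only.

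Lung tissue was as labelled: the alveolar and airway markers Sftpc, Scgb1a1 and Ager and the endothelial Cldn5 all had mean levels at or above the 98.5th percentile of genes. Array medians lay between 8.25 and 8.34. Sex-linked genes set 3 arrays apart, all of day 60: the Y-linked gene Eif2s3y reached 10.09, with Xist at 6.61, in replicate 2 of the BLT1+/+KRasLA1 CS lungs, and the PBS pools had 9.68 and 9.04 with Xist at 12.32 and 12.16. The other 13 arrays had Eif2s3y between 4.27 and 4.74. Ltb4r1, the gene of BLT1, lay between 7.22 and 7.63 on every array and does not check the BLT1 labels. Of 195 genes in 14 lists of B cell pathway genes and of other cell types, 180 were measured.

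Silica lowered most of these genes at day 2. In all, 7 of the 9 fell, against 4.37% of all genes tested (adjusted p under 0.05, limma, Benjamini-Hochberg over 19938 genes). The median of the 9 was -1.12, beside -0.02 over all genes. For 8 of the 9, all 6 CS lungs lay below both PBS pools, a pattern that 10.0% of all genes showed. At day 60, when every lung carried KRasLA1, all 9 values were above 0 and 2 rose, Fcer2a and Cd72, against 3.35% of all genes. Their median was 0.44, beside -0.03 over all genes, and for 5 of the 9 all 6 CS lungs lay above both pools, against 9.66% of all genes. Both day 60 pools had the high Eif2s3y given above, while 5 of the 6 day 60 CS lungs (4.45 to 4.74) and every day 2 array did not, so CS and PBS arrays of day 60, and the pools of both days, also differ in this marker. Its part in the day 60 results and in the differences between days was not tested.

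**Figure D1:**
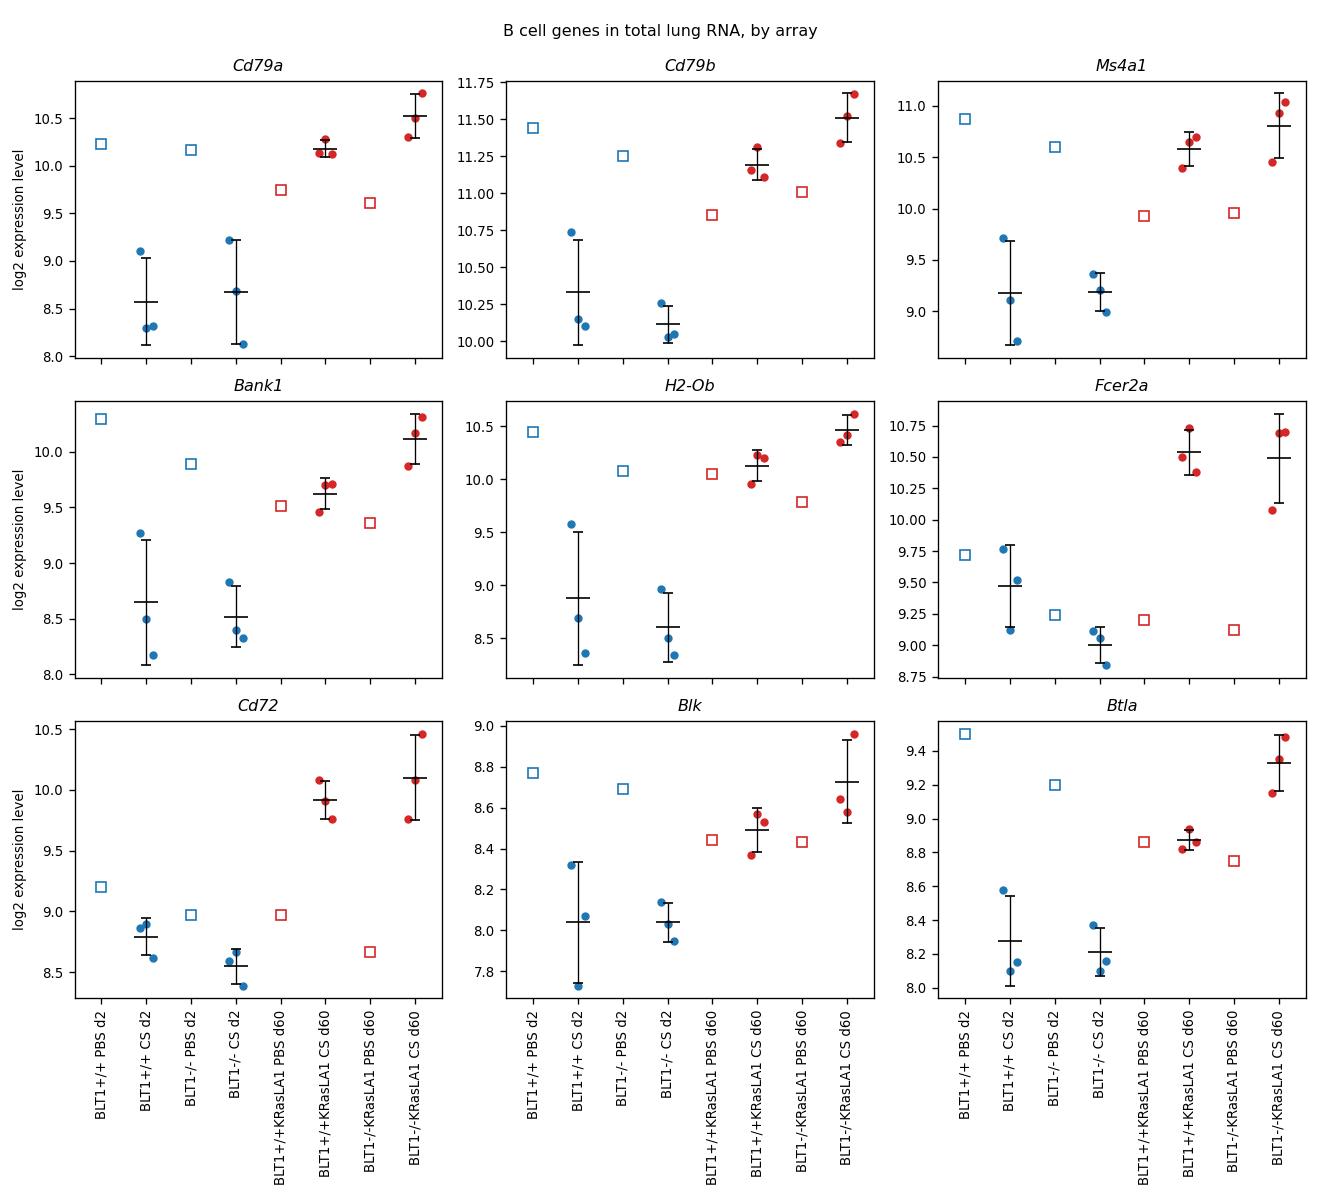
Log2 expression level of each of the 9 genes (vertical axes, 1 panel per gene, each with its own scale) on the 16 arrays, by group. Filled points are single CS lungs with their mean and SD (n = 3), open squares are single PBS pools, blue is day 2 and red is day 60 with KRasLA1. In 8 panels the day 2 CS lungs lie below both day 2 pools. Fcer2a is the exception.

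The signalling chains of the receptor fell at day 2. Cd79a (probe set 10551025, chromosome 7) was at 10.23 in the BLT1+/+ and 10.17 in the BLT1-/- PBS pool, at 9.10, 8.30 and 8.32 in BLT1+/+ CS lungs and at 9.22, 8.68 and 8.13 in BLT1-/- CS lungs. All 6 CS lungs lay below both pools, with replicate 1 of each genotype nearest to them. The mean difference was -1.58 ± 0.24 (SE, 2.98-fold lower, adjusted p = 0.00141). At day 60 Cd79a was at 9.75 and 9.61 in the pools, at 10.13, 10.28 and 10.12 in BLT1+/+KRasLA1 CS lungs and at 10.30, 10.50 and 10.76 in BLT1-/-KRasLA1 CS lungs. Every CS lung was above both pools, yet the difference of 0.67 ± 0.24 missed the threshold (adjusted p = 0.194).

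Cd79b (10392142, chromosome 11), the partner chain, was at 11.44 and 11.25 in the day 2 pools, at 10.74, 10.15 and 10.10 in BLT1+/+ CS lungs and at 10.26, 10.03 and 10.05 in BLT1-/- CS lungs. The groups did not overlap, and the fall was 1.12 ± 0.14 on the log2 scale (2.18-fold, adjusted p = 4.71e-04). At day 60 the pools were at 10.85 and 11.01, the BLT1+/+KRasLA1 CS lungs at 11.16, 11.31 and 11.11 and the BLT1-/-KRasLA1 CS lungs at 11.34, 11.52 and 11.67. Again all 6 CS lungs were above both pools, with a difference of 0.42 ± 0.14 (adjusted p = 0.150).

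The kinase Blk and the adaptor Bank1, which act on the inner side of the receptor, fell by different amounts. Blk (10420758, chromosome 14) was at 8.77 and 8.69 in the day 2 pools, at 8.32, 7.73 and 8.07 in BLT1+/+ CS lungs and at 8.14, 8.03 and 7.95 in BLT1-/- CS lungs. The difference was -0.69 ± 0.14 (1.61-fold lower, adjusted p = 0.00623), with no overlap. At day 60 the pools were at 8.44 and 8.43, and the CS lungs at 8.37, 8.57 and 8.53 (BLT1+/+KRasLA1) and 8.64, 8.58 and 8.96 (BLT1-/-KRasLA1). A single CS lung lay below the pools, and the difference of 0.18 ± 0.14 did not pass (adjusted p = 0.672).

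Bank1 (10502335, chromosome 3) was at 10.29 and 9.89 in the day 2 pools, at 9.27, 8.50 and 8.17 in BLT1+/+ CS lungs and at 8.83, 8.40 and 8.33 in BLT1-/- CS lungs. No CS lung reached a pool, and the difference was -1.51 ± 0.22 (2.85-fold lower, adjusted p = 0.00102). Day 60 pools were at 9.51 and 9.36, with CS lungs at 9.46, 9.70 and 9.71 (BLT1+/+KRasLA1) and 9.87, 10.17 and 10.31 (BLT1-/-KRasLA1). Here 1 BLT1+/+KRasLA1 lung lay between the pools, and the difference of 0.44 ± 0.22 did not pass (adjusted p = 0.422).

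Ms4a1 and H2-Ob moved like the receptor chains at day 2. Ms4a1 (10466172, chromosome 19), the gene of CD20, was at 10.87 and 10.60 in the pools, at 9.71, 9.11 and 8.71 in BLT1+/+ CS lungs and at 9.36, 9.21 and 8.99 in BLT1-/- CS lungs. Its difference was -1.55 ± 0.21 (2.93-fold lower, adjusted p = 6.71e-04), and the highest CS lung stayed below the lower pool. At day 60 its pools were at 9.93 and 9.96, its BLT1+/+KRasLA1 CS lungs at 10.39, 10.65 and 10.70 and its BLT1-/-KRasLA1 CS lungs at 10.45, 10.93 and 11.04. All 6 were above the pools, and at 0.75 ± 0.21 (adjusted p = 0.0720) the difference missed the threshold.

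H2-Ob (10444284, chromosome 17) was at 10.45 and 10.08 in the day 2 pools, at 9.58, 8.69 and 8.36 in BLT1+/+ CS lungs and at 8.97, 8.50 and 8.34 in BLT1-/- CS lungs. It had the widest spread among BLT1+/+ CS lungs of the 9 genes, an SD of 0.63 (n = 3), but no overlap with the pools. The difference was -1.53 ± 0.24 (2.88-fold lower, adjusted p = 0.00157). At day 60 the pools were at 10.05 and 9.79 and the CS lungs at 9.96, 10.23 and 10.20 (BLT1+/+KRasLA1) and 10.35, 10.42 and 10.62 (BLT1-/-KRasLA1). The lowest CS lung lay between the pools, and the difference was 0.38 ± 0.24 (adjusted p = 0.570).

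The inhibitory receptors differed from each other. Btla (10435982, chromosome 16), which T cells carry too, was at 9.50 and 9.20 in the day 2 pools, at 8.58, 8.10 and 8.15 in BLT1+/+ CS lungs and at 8.37, 8.10 and 8.16 in BLT1-/- CS lungs. Its fall of 1.10 ± 0.13 on the log2 scale (2.15-fold) had the smallest adjusted p of the 9 at this time, 2.55e-04. At day 60 the pools were at 8.86 and 8.75, the BLT1+/+KRasLA1 CS lungs at 8.82, 8.94 and 8.86 and the BLT1-/-KRasLA1 CS lungs at 9.15, 9.35 and 9.48. All 3 BLT1-/-KRasLA1 lungs and 1 BLT1+/+KRasLA1 lung lay above both pools, and the mean difference was 0.29 ± 0.13 (adjusted p = 0.303).

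Cd72 (10512470, chromosome 4) was at 9.20 and 8.97 in the day 2 pools, at 8.86, 8.90 and 8.62 in BLT1+/+ CS lungs and at 8.59, 8.67 and 8.39 in BLT1-/- CS lungs. All 6 lay below both pools, but the difference of -0.41 ± 0.15 did not pass (adjusted p = 0.0937). At day 60 the pools were at 8.97 and 8.67, the BLT1+/+KRasLA1 CS lungs at 10.08, 9.91 and 9.76 and the BLT1-/-KRasLA1 CS lungs at 9.76, 10.08 and 10.46. The lowest CS lung was well above the higher pool, and Cd72 rose by 1.18 ± 0.15 (2.27-fold, adjusted p = 6.88e-04).

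Fcer2a, the gene of CD23 (10576757, chromosome 8), was at 9.72 and 9.24 in the day 2 pools, at 9.77, 9.12 and 9.52 in BLT1+/+ CS lungs and at 9.11, 9.06 and 8.84 in BLT1-/- CS lungs. CS lungs and pools overlapped, and the difference of -0.25 ± 0.18 did not pass (adjusted p = 0.452, 95% interval -0.63 to 0.14). The 7 genes that fell had intervals ending at or below -0.39. At day 60 the pools were at 9.20 and 9.12, the BLT1+/+KRasLA1 CS lungs at 10.50, 10.73 and 10.38 and the BLT1-/-KRasLA1 CS lungs at 10.08, 10.69 and 10.70. The groups were apart, and the rise of 1.35 ± 0.18 (2.56-fold, adjusted p = 8.27e-04) was the highest value of the 9 genes.

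**Figure D2:**
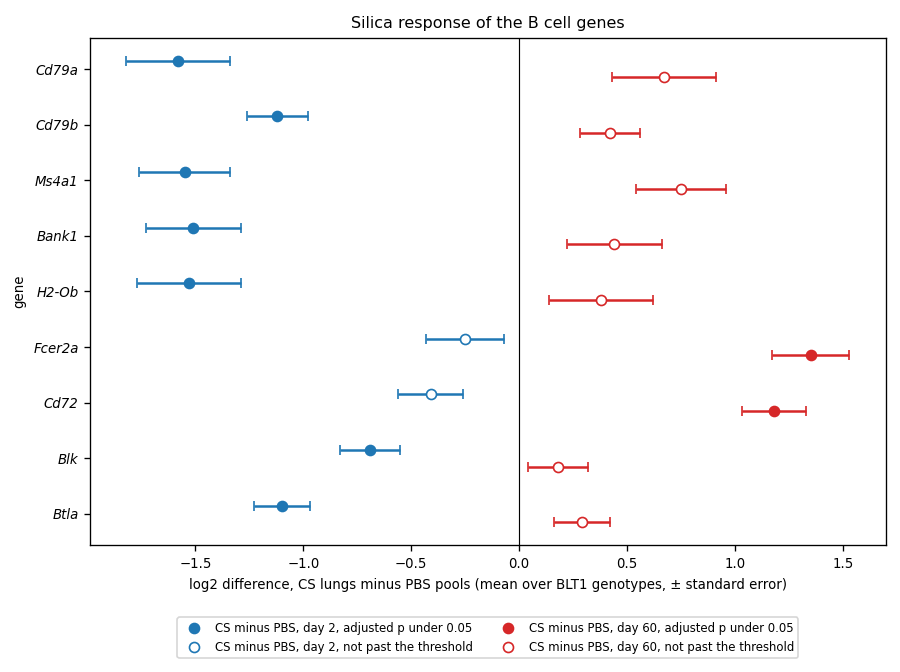
Log2 difference between CS lungs and PBS pools, averaged over the BLT1 genotypes, for the 9 genes (horizontal axis), with standard errors. Blue is day 2 (-1.58 to -0.25) and red is day 60 with KRasLA1 (0.18 to 1.35). Filled symbols passed an adjusted p of 0.05.

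The calls rest on few pools. Without the BLT1-/- pool of day 2, an additive fit of silica and BLT1 within the day compared BLT1+/+ CS lungs with their single pool. Without the BLT1+/+ pool it compared BLT1-/- CS lungs with theirs. Such fits repeat the values within each genotype given below and are no separate check of the mean over genotypes. Values for the 7 genes stayed between -1.69 and -0.64 in both fits. At day 60 the same kind of fit left Fcer2a at 1.33 and Cd72 at 0.94 without the BLT1-/-KRasLA1 pool. Without the BLT1+/+KRasLA1 pool Fcer2a was at 1.37, Cd72 at 1.43 and Cd79a at 0.91. When only the 8 arrays of day 60 were fitted by limma, 5 passed: Cd79a (adjusted p = 0.0131), Cd79b, Ms4a1, Fcer2a and Cd72. The share of all genes called in that fit is not given here, so this count has nothing to be set against.

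The silica response itself differed between the times for all 9 genes. The day 60 response exceeded that of day 2 in 9 of 9, against 1.70% of all genes. The size of the difference ran from 0.87 ± 0.20 for Blk (adjusted p = 0.0360) to 2.30 ± 0.30 for Ms4a1 (adjusted p = 0.00183). Cd79a differed by 2.25 ± 0.35, Bank1 by 1.95 ± 0.31, H2-Ob by 1.90 ± 0.34 and Cd79b by 1.54 ± 0.20. For Fcer2a and Cd72 it was 1.60 with errors of 0.25 and 0.21, and for Btla 1.39 ± 0.18. For Fcer2a and Cd72 most of the difference lay in the day 60 rise, while for Cd79a, Ms4a1, Bank1 and H2-Ob most lay in the day 2 fall. Blk missed the threshold in 5 of 12 fits that each left out 1 CS lung (highest adjusted p = 0.0589, without BLT1+/+KRasLA1 CS replicate 2). The others lay within 1.49 to 2.43 over those fits and the other settings tried, except Btla, which ranged from 1.35 to 1.47.

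Levels after silica and after saline were also set against each other across the times. Among CS lungs, 9 of 9 were higher at day 60, by 0.57 ± 0.10 (Blk) to 1.72 ± 0.17 (Cd79a), against 12.2% of all genes, and in all 9 the lowest day 60 lung was above the highest day 2 lung (6.47% of all genes). Among PBS pools, all 9 values were below 0, from -0.26 ± 0.18 (Cd72) to -0.79 ± 0.26 (Ms4a1). None of the 9 passed by limma (adjusted p between 0.177 and 0.793), where 0.231% of all genes were called lower. A lower value with an unadjusted p under 0.05 was found for 4 of the 9 and for 1011 of 19938 genes. Both day 60 pools lay below both day 2 pools for all 9, a pattern of 17.6% of all genes. The comparisons share the same pools and lungs, so these counts are not separate evidence.

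In order of level, a day 2 CS group stood lowest for every one of the 9 genes. For all but Fcer2a and Cd72, both day 2 CS groups held the lowest places, and their lungs overlapped each other. The BLT1-/-KRasLA1 CS lungs stood highest for Cd79a (10.52 ± 0.23, SD, n = 3), Cd79b (11.51 ± 0.17), H2-Ob (10.46 ± 0.14) and Cd72 (10.10 ± 0.35). For Ms4a1, Bank1, Blk and Btla the BLT1+/+ PBS pool of day 2 stood highest, within the range of the BLT1-/-KRasLA1 CS lungs for all but Btla. Fcer2a was highest in BLT1+/+KRasLA1 CS lungs (10.53 ± 0.18), which overlapped BLT1-/-KRasLA1 CS lungs (10.49 ± 0.35). For Fcer2a and Cd72, every day 60 CS lung lay above every other array of the series.

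Within each genotype the control is a single pool. In BLT1+/+ lungs at day 2, 6 of 9 genes fell (Cd79a, Cd79b, Ms4a1, Bank1, H2-Ob and Btla), against 0.311% of all genes, with values from -1.69 ± 0.30 for Ms4a1 to -1.11 ± 0.20 for Cd79b. Without BLT1+/+ CS replicate 2, 1 of 9 passed, and without replicate 3, 2 passed. Over the fits that each left out 1 CS lung, the count over all genes also moved, from 65 to 685, beside 232 in the main fit. Cd79a and H2-Ob missed the threshold with quantile normalization (adjusted p = 0.0526 and 0.0580), with cyclic loess (0.0537 and 0.0566) and without a variance trend (0.0577 and 0.0657), and in 6 and 9 of the 12 fits that each left out 1 lung. In BLT1-/- lungs the same 6 fell, against 1.40%, from -1.49 ± 0.35 for Cd79a to -0.99 ± 0.18 for Btla. Blk was at -0.73 ± 0.20 (adjusted p = 0.0975) and -0.64 ± 0.20 (adjusted p = 0.0669). It passed in both when the day 2 replicate number was a block with pools at its mean (adjusted p = 0.0393 and 0.0339). That setting was chosen after seeing the data and raised the counts over all genes too, as given below. At day 60, Fcer2a rose in BLT1+/+KRasLA1 lungs (1.33 ± 0.25, adjusted p = 0.0259), 1 of 9 against 0.687%. Fcer2a (1.37 ± 0.25, adjusted p = 0.0222) and Cd72 (1.43 ± 0.21, adjusted p = 0.00619) rose in BLT1-/-KRasLA1 lungs, 2 of 9 against 1.10%. Cd72 was at 0.94 ± 0.21 in BLT1+/+KRasLA1 lungs (adjusted p = 0.0647). The BLT1+/+KRasLA1 count was 0 without CS replicate 1 or 2 of that genotype and 2 without replicate 3, or without replicate 1 or 3 of BLT1-/-KRasLA1. The BLT1-/-KRasLA1 count was 1 without its replicate 2 or 3. Counts over all genes in such fits ranged from 43 to 477 in BLT1+/+KRasLA1 and from 69 to 432 in BLT1-/-KRasLA1 lungs.

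Loss of BLT1 changed none of the 9 genes past the threshold. After silica at day 2, 0 of 9 were called by limma, against 0.0201% of all genes. An unadjusted p under 0.05 was found for 1735 of 19938 genes and for 1 of the 9. That gene was Fcer2a, lower in BLT1-/- lungs by 0.47 ± 0.18 in size, with an adjusted p of 0.440, an interval of -0.85 to -0.09 and no overlap of the 3 lungs with the other 3. It was the only one of the 9 without overlap in either direction. Of all genes, 6.13% had all 3 BLT1-/- lungs lower and 6.31% had all 3 higher. The other 8 lay between -0.28 (H2-Ob) and 0.10 (Cd79a), and their intervals allow differences from -0.79 to 0.63.

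After silica at day 60, 8 of the 9 values of BLT1-/-KRasLA1 minus BLT1+/+KRasLA1 were above 0, and Fcer2a was at -0.04 ± 0.18. None passed by limma, against 0.0401% of all genes in either direction. An unadjusted p under 0.05 was found for 810 of 19938 genes and for 3 of the 9, all with an adjusted p of 0.967. These were Btla at 0.45 ± 0.13 (interval 0.18 to 0.73), Bank1 at 0.49 ± 0.22 and Cd79b at 0.32 ± 0.14. For 6 of the 9 all 3 BLT1-/-KRasLA1 lungs lay above all 3 BLT1+/+KRasLA1 lungs, a pattern of 4.58% of all genes. Without BLT1+/+KRasLA1 CS replicate 2, the lung with the high Eif2s3y, Btla was at 0.49, Bank1 at 0.53 and Cd79b at 0.38, and Fcer2a at 0.05, each with an adjusted p of 1.00. The silica response did not differ between BLT1 genotypes past the threshold for any of the 9 by limma at either day, where 0 genes of all tested were called. Its differences lay between -0.03 and 0.28 at day 2 and between 0.04 and 0.64 at day 60. At day 2, 0 of 9 had an unadjusted p under 0.05, against 896 of 19938 genes. At day 60, 1 of 9 did, Btla at 0.56 ± 0.25, against 396 of 19938 genes.

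Within a group, a lung mostly deviated in the same direction for most of the 9 genes. In both day 2 genotypes CS replicate 1 was above the group mean for 9 of 9 genes and the highest lung for 8, with a mean deviation of 0.42 in BLT1+/+ and 0.21 in BLT1-/- lungs. The exception was Cd72, highest in replicate 2 of both. In BLT1-/-KRasLA1 lungs, replicate 3 was highest for 9 of 9 (mean deviation 0.21) and replicate 1 lowest for 8 (-0.24). BLT1+/+KRasLA1 lungs were closest to each other, with mean deviations from -0.07 to 0.09. Deviations of same-numbered day 2 lungs of both genotypes went together over all genes (r = 0.43, 0.20 and 0.34 for numbers 1 to 3), which those of day 60 did not (0.09, 0.01 and 0.06).

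**Figure D3:**
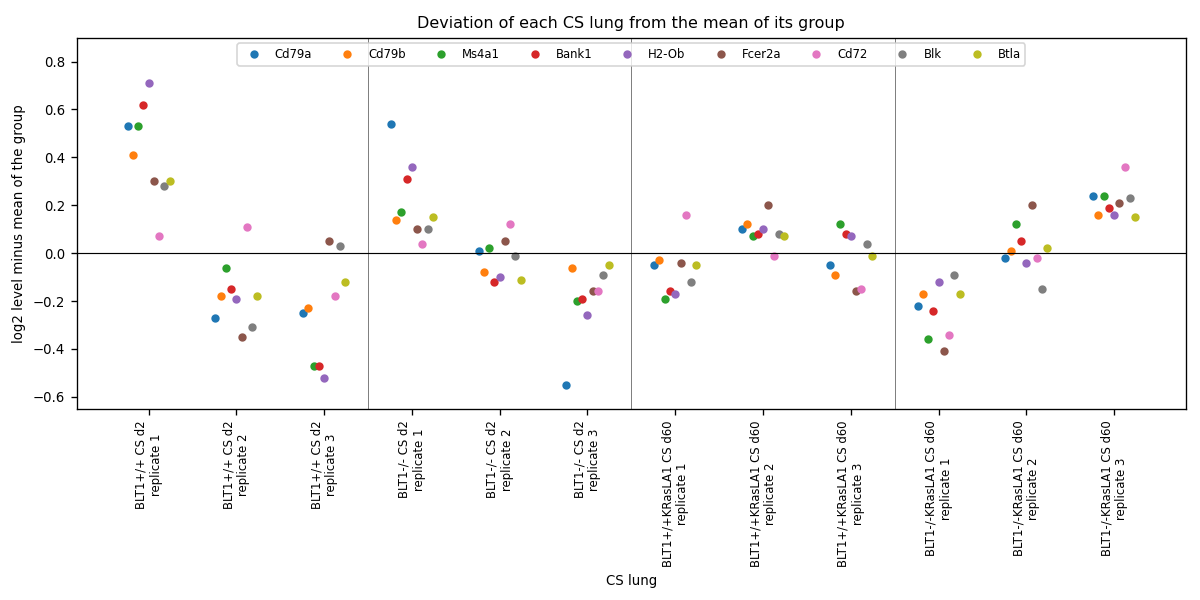
Log2 level of each of the 9 genes in each of the 12 CS lungs minus the mean of its group of 3 (vertical axis), 1 colour per gene. Replicate 1 of both day 2 genotypes lies above 0 for all 9 genes, as does replicate 3 of BLT1-/-KRasLA1.

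The genes' levels followed each other over the 16 arrays. Over 36 pairs Pearson's r ran from 0.63 to 0.98 with a median of 0.94. Each gene against the mean of the other 8 gave 0.92 to 0.98 for 7 genes, 0.84 for Cd72 and 0.76 for Fcer2a. After each group's mean was removed, over 12 CS lungs, r ran from 0.26 to 0.98 with a median of 0.75. The arrays share groups and normalization, and these r values are descriptions only.

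Outside the 9, the genes whose levels were most like their mean over the 16 arrays were Fcrla, Rubcnl, Cr2 and Ikzf3 (r = 0.98), then Fcrl1, Cd22, Lrmp, Il27ra, Septin1 and Fcmr (0.97). Fcrla and Fcrl1 are Fc receptor-like proteins of B cells, Cr2 and Cd22 are B cell coreceptors, Fcmr is the receptor for IgM, and Ikzf3 encodes the lymphoid transcription factor Aiolos. Ikzf3 was also the closest of all within groups (r = 0.99 over 12 CS lungs), followed by Ehmt2, Stk26 and Pax5 (0.96), Fcrl1 (0.95) and Fcmr, Cldn7, Ltb, Plcl2 and Sh2b1 (0.94). Over the 16 arrays Cldn7 had r = -0.56, Sh2b1 0.46 and Stk26 0.70.

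In the wider receptor pathway, 26 coreceptor and signalling genes were measured. At day 2, 12 fell and 2 rose (median -0.33), and at day 60, 14 rose and 0 fell (median 0.48). Of all genes, 4.37% were called lower and 8.03% higher at day 2, and 3.35% higher and 0.677% lower at day 60. The 2 that rose at day 2 lie near the share of that day. The same shares stand beside the counts of every list below. Among coreceptors and surface regulators, Cd22 fell by 1.05 ± 0.16 and Cr2 by 1.05 ± 0.22 on the log2 scale at day 2, as did Fcmr (-1.16 ± 0.22) and Cd37 (-0.88 ± 0.14). Others did not pass: Cd81, a partner of the Cr2 product, was at -0.10 ± 0.05 (adjusted p = 0.190), Cd83 at -0.31 ± 0.10 (0.0638) and the inhibitory Fc receptor Fcgr2b at 0.37 ± 0.13 (0.0957). Enzymes and adaptors downstream of the receptor were mixed. Prkcb, a protein kinase C, was at -0.79 ± 0.16 and the linker Blnk at -0.58 ± 0.16, both past the threshold, and the kinase Btk was at -0.10 ± 0.11 (adjusted p = 0.653). Malt1 and Bcl10, which carry the signal to NF-kB in many leukocytes, rose by 0.86 ± 0.14 and 0.24 ± 0.06. At day 60 Malt1 (1.00 ± 0.14), Cd83, an activation marker (0.88 ± 0.10), the signalling protein Vav1 (0.84 ± 0.15) and the inhibitory Fc receptor Fcgr2b (0.81 ± 0.13) rose most, while Cd22 was at 0.40 ± 0.16 (adjusted p = 0.235). Ptpn6, the phosphatase that CD72 recruits, was at -0.04 ± 0.09 at day 2 and rose by 0.40 ± 0.09 at day 60.

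Of 16 B cell transcription factors, 12 fell at day 2 and 0 rose (median -0.45), and 5 rose at day 60 (median 0.18). Pax5, the factor that keeps B cell identity, fell by 0.72 ± 0.16 on the log2 scale and was at 0.24 ± 0.16 at day 60 (adjusted p = 0.616). Ebf1, which acts with it, fell by 0.65 ± 0.16 and was at 0.00 ± 0.16 at day 60. Spib (-1.03 ± 0.21, then 0.96 ± 0.21) and the octamer coactivator Pou2af1 (-0.86 ± 0.17, then 0.81 ± 0.17) passed in both directions. Ciita, the master regulator of MHC class II genes, did too (-0.46 ± 0.11, then 0.53 ± 0.11).

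Among 14 homing and survival receptors, 7 fell and 1 rose at day 2 (median -0.38), and 6 rose at day 60 (median 0.47). Cxcr5, which guides B cells to follicles, was at -1.14 ± 0.23 and then at 0.53 ± 0.23 (adjusted p = 0.319). Tnfrsf13c, the BAFF receptor, fell by 0.46 ± 0.12 on the log2 scale and rose by 0.47 ± 0.12. Of 12 ligands and partners 4 rose and 1 fell at day 2, and 3 rose at day 60. Cxcl13, the ligand of CXCR5, rose by 2.71 ± 0.27 at day 2, when Cxcr5 fell, and by 1.10 ± 0.27 at day 60. Its day 2 pools were at 9.19 and 8.55 and the CS lungs between 11.04 and 12.50, without overlap. Sema4d, the ligand of CD72, was at 0.20 ± 0.16 at day 2 and rose by 0.85 ± 0.16 at day 60. Tnfrsf14, the partner of BTLA, was at -0.13 ± 0.10 and 0.11 ± 0.10, and Tnfsf13b, which encodes BAFF, at 0.21 ± 0.11 and 0.35 ± 0.11, none past the threshold.

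Of 8 genes of MHC class II presentation, 6 fell at day 2 (median -0.58) and 2 rose at day 60 (Ctss and Ifi30, median 0.37). H2-Oa, the partner chain of H2-Ob, fell by 0.69 ± 0.12 on the log2 scale, and H2-DMa, which H2-O restrains, by 0.71 ± 0.16. Of 11 plasma cell genes, 3 rose at day 2 (Xbp1, Sdc1 and Creld2), none passed as lower by limma (median -0.03), and 6 rose at day 60 (median 0.35). At day 2 Jchain was at -0.64 ± 0.21 (unadjusted p = 0.00957, adjusted p = 0.0668), Irf4, a factor of antibody-secreting cells, at -0.43 ± 0.18 (adjusted p = 0.140) and Mzb1 at -0.30 ± 0.14 (adjusted p = 0.214). Jchain, whose product links IgM and IgA into multimers, rose by 2.82 ± 0.21 at day 60, from 9.64 and 9.76 in the pools to between 12.07 and 12.91 in CS lungs. Mzb1, a helper of antibody secretion, rose by 1.26 ± 0.14.

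Markers of other lymphocytes were lower too at day 2. Of 17 T cell genes 10 fell at day 2 (median -0.39) and 10 rose at day 60 (median 0.56), with Cd3g at -0.90 ± 0.15 and 1.03 ± 0.15. Their mean level over the list was 8.64 and 8.71 in the day 2 pools, 8.11 to 8.38 in day 2 CS lungs, 8.28 and 8.35 in the day 60 pools and 8.68 to 9.17 in day 60 CS lungs. Of 13 NK and cytotoxic genes 11 fell at day 2 (median -0.65), with Ccl5 at -0.85 ± 0.11. At day 60 only Ccl5 (0.49 ± 0.11) and Il2rb (0.62 ± 0.15) rose, and the median was 0.20. Their mean was 8.62 and 8.70 in the day 2 pools against 7.67 to 8.07 in CS lungs, and at day 60 it was 8.41 and 8.20 in the pools and 8.32 to 8.73 in CS lungs, with overlap. Of 12 dendritic cell genes 6 fell and 2 rose at day 2, and 7 rose and 1 fell at day 60. The part of these cells in the results for the 9 genes was not tested. Members of the 9, Btla and H2-Ob among them, are not limited to B cells. For none of the 9, Fcer2a and Cd72 included, does bulk RNA show which cells carried it.

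**Figure D4:**
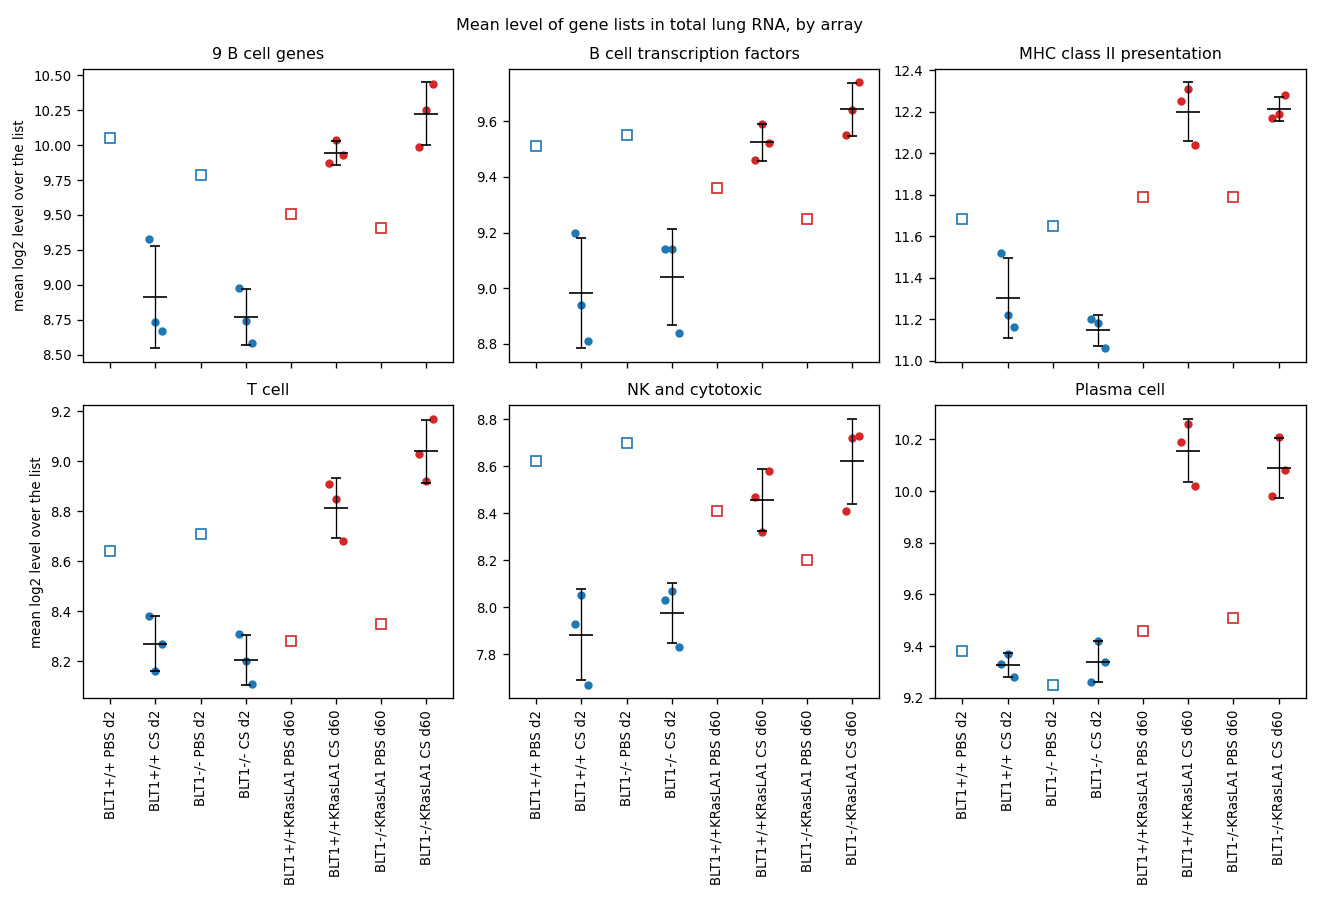
Mean log2 level over the 9 B cell genes and over 5 gene lists (vertical axes, 1 panel per list, each with its own scale) on the 16 arrays, by group. Filled points are CS lungs with mean and SD (n = 3), open squares are PBS pools, blue is day 2 and red is day 60. At day 2 the CS lungs lie below both pools in every panel but that of plasma cells.

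Other tissues were checked as well. Of 12 heart muscle genes, which a dissected lung can carry along, 6 fell at day 2 (median -0.76), the median at day 60 was -0.56, and their mean was 10.16 and 10.14 in the day 2 pools against 9.12 to 9.83 in CS lungs. Of 9 thymus genes 2 fell at day 2 (Themis and Cd1d1) and 1 rose at day 60 (Themis), with a list mean between 6.85 and 7.62 on all arrays, and Rag1, Rag2, Dntt and Ptcra, which mark immature lymphocytes, did not pass at either time. Of 12 myeloid and neutrophil genes 1 rose (Cd68) and 1 fell (Ccr2) at day 2, beside 8.03% and 4.37% of all genes. At day 60, 6 rose, beside 3.35% of all genes. The list mean was 10.62 and 11.01 in the day 2 pools but 9.37 and 8.98 in the day 60 pools. The part of these lower pools in the 6 rises was not tested. Of 9 genes of follicular stroma 2 rose at day 2, and the median was -0.01 at day 2 and 0.04 at day 60. All 9 proliferation genes rose at day 2 (median 1.82). The part of these lists in the results for the 9 genes was not tested either.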

How the data were processed

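Log2 expression values per probe set were deposited as 1 table of 16 arrays. Per the submitters' processing notes, the authors used RMA and Partek 6.6 for normalization. The array design and any later steps were not stated in the sources used. Normalization between arrays would hide a change in total RNA per lung. Of 35556 probe sets, 21789 had 1 symbol in the platform annotation, 1621 several and 12146 none. The probe set with the highest mean was kept per gene. No column was unused.

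Group means of all 16 arrays were fitted with limma 3.58.1 in R 4.3.3 (lmFit, eBayes with a mean-variance trend), two-sided, with Benjamini-Hochberg adjustment over 19938 genes in each of 13 comparisons and a threshold of 0.05. Only CS lungs supply the 8 residual degrees of freedom, to which 5.40 prior ones were added. For each PBS pool the spread of a CS lung was taken. The number of arrays limits the precision. Errors are standard errors unless called SD. The code was tested on simulated data. The 9 genes and the lists were chosen with earlier results of these data known. Named were the 9 genes, genes of the B cell, class II, ligand and plasma cell lists, up to 4 genes with small p of other lists, and the 10 genes most like the mean of the 9 by Pearson's r. Genes named outside this rule were chosen after their values were seen. These are the tissue and sex markers, Ltb4r1, and Rag1, Rag2, Dntt and Ptcra.

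Same-numbered day 2 lungs of both genotypes correlated above 0.1 for every number, and those of day 60 did not. The main fit used no pairing of lungs. Replicate numbers entered only as a block among the alternatives. The planned block covered the CS lungs of both days, and the block at day 2 alone was chosen after seeing the data. Promoter sequences were from RefSeq (GRCm38.p6) and were read with Python 3.11.15. The mutated gene of the KRasLA1 allele is not reported here. Alternatives were quantile and cyclic loess normalization, a filter on dim genes, no variance trend, array weights, averaged probe sets, the arrays of 1 day alone, each lung or pool left out, a replicate block, and both pools of a day as the control.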

Additional observations from a re-analysis of the deposited data

Results flagged for a closer look

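The silica response, CS lungs minus PBS pools averaged over BLT1 genotypes, differed between day 60 with KRasLA1 and day 2 without it for all 9 genes, by a test of the difference itself (limma, adjusted over all genes). The day 60 response was higher by 2.25 for Cd79a, 1.54 for Cd79b, 2.30 for Ms4a1, 1.95 for Bank1, 1.90 for H2-Ob, 1.60 for Fcer2a, 1.60 for Cd72, 0.87 for Blk and 1.39 for Btla on the log2 scale. It is the sum of lower CS levels at day 2, higher CS levels at day 60 and PBS pools that were lower at day 60 by 0.26 to 0.79 in size. No group of 4 or more samples of one kind exists in this series, so no single lung was tested for standing apart.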

How the results depend on the processing

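Each control is 1 or 2 pooled arrays, depth cannot be judged from array values, and the day cannot be told apart from KRasLA1. The cause of the moves below was not tested, except that settings with fewer arrays or 1 pool have fewer data. Over all settings of the single genes, 1896 values kept direction and side of the threshold, 60 lost and 30 gained a call, and 21 changed sign.

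Counts over all genes in the main analysis were 2473 for silica at day 2, 802 for silica at day 60, 469 for the difference between days, 79 for PBS pools across days, 4 and 8 for BLT1 after CS at day 2 and day 60, 232 and 1315 for silica in BLT1+/+ and BLT1-/- lungs, and 152 and 234 in BLT1+/+KRasLA1 and BLT1-/-KRasLA1 lungs. Quantile normalization gave 7 genes for BLT1 at day 2. Without a variance trend there were 44 for PBS, 2 for BLT1 at day 2, 134 for BLT1+/+ and 101 for BLT1+/+KRasLA1. Array weights gave 1729 for silica at day 60 with 5 of the 9 members, 875 for the difference, 335 for PBS, 14 for BLT1 at day 60, 2647 for BLT1-/-, 676 for BLT1+/+KRasLA1 with 2 members and 876 for BLT1-/-KRasLA1 with 4 members. Arrays of the day alone gave 1589 for silica at day 2, 5 members for silica at day 60, 2 and 3 genes for BLT1 at day 2 and day 60, 93 genes and 1 member for BLT1+/+, 425 genes and 3 members for BLT1-/-, and 59 genes and 0 members for BLT1+/+KRasLA1.

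With 1 pool left out, silica at day 2 gave 96 genes and 1 member (without the BLT1-/- pool) or 426 genes and 3 members (without the BLT1+/+ pool), and silica at day 60 gave 58 genes and 0 members or 171 genes and 3 members (without the BLT1-/-KRasLA1 or BLT1+/+KRasLA1 pool). The replicate block at day 2, with pools at its mean and chosen after seeing the data, gave 977 genes for the difference, 21 for BLT1 at day 2, 749 for BLT1+/+ and 2345 for BLT1-/-, with 7 members in each of these genotypes against 6. It changed no other count of members. The planned replicate block over the 12 CS lungs kept 9 members called across days (5777 genes) and 0 for BLT1 at both days (6 and 7 genes). Of the genes called in BLT1-/- lungs at day 2, 78.7% were higher, and 66.2% with quantile normalization. Both pools of the day as control, also chosen after seeing the data, gave 1060 genes for BLT1+/+, 2642 for BLT1-/-, 619 with 2 members for BLT1+/+KRasLA1 and 514 for BLT1-/-KRasLA1.

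With each CS lung left out in turn, members called ranged from 7 to 8 for silica at day 2 (genes 1945 to 3099), 2 to 4 at day 60 (573 to 1040; 4 without BLT1+/+ CS day 2 replicate 1, with Cd79b and Ms4a1 added), 8 to 9 for the difference (312 to 716), 0 to 0 for PBS (38 to 103), 9 to 9 for CS lungs across days (4282 to 5355), 0 to 0 for BLT1 at day 2 (1 to 6) and day 60 (1 to 8), 1 to 7 in BLT1+/+ (65 to 685), 4 to 7 in BLT1-/- (697 to 1629), 0 to 2 in BLT1+/+KRasLA1 (43 to 477) and 1 to 2 in BLT1-/-KRasLA1 (69 to 432).

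Values near 0 changed sign. For BLT1 after CS at day 2, Ms4a1 was at -0.01 with quantile and with loess normalization and -0.07 with array weights, and Blk at -0.05 with array weights. For BLT1 at day 60 Fcer2a was at 0.09 with array weights, and for silica in BLT1+/+KRasLA1 Btla was at -0.01 with quantile normalization. Leaving out 1 lung, BLT1 at day 2 ranged from -0.17 to 0.38 for Cd79a, -0.23 to 0.28 for Ms4a1, -0.15 to 0.15 for Blk, -0.36 to 0.19 for Bank1, -0.54 to 0.08 for H2-Ob and -0.16 to 0.09 for Btla, at day 60 from -0.15 to 0.16 for Fcer2a, and Btla in BLT1+/+KRasLA1 from -0.02 to 0.04.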
